A study of Mus musculus with 4 samples.

Results

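CpG-dense methylated regions outside promoters were examined in islet DNA of WT and βRapKO mice. Peaks of methylated DNA from 4 libraries that overlapped by at least 1 bp were joined into 180857 regions on chromosomes 1 to 19 of GRCm38 (mm10). A region was kept when the reference held 4 or more CpG sites per 100 bp in it and it touched no promoter window, from 1000 bp upstream to 500 bp downstream of the start of a protein-coding gene. This left 1113 regions. Another 119 regions were as dense in CpG but lay at such a promoter, and 4795 regions outside promoters held 3 to 4 CpG sites per 100 bp. These groups, and all regions together, serve for comparison.

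The libraries came from islets of mice 8 weeks old, 2 libraries of WT and 2 of βRapKO. Both genotypes carry Raptor lox/lox on C57BL/6, and the βRapKO animals also carry RipCre, a Cre recombinase under the rat insulin promoter that deletes Raptor, the defining subunit of mTORC1, in beta cells. The WT animals were littermates without Cre, so that an effect of Cre and of the deletion cannot be told apart. The methods name a mixed C57BL/6J:129/SvJ background for the Cre line. Whole islets were used, and the alpha, delta and other cells in them keep Raptor. In such DNA a change in beta cells and a change in the share of beta cells cannot be told apart. The labels do not say how many mice went into a library, so p-values measure only the spread between these libraries.

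Most CpG sites of a mammalian genome are methylated, but dense clusters of them at promoters, the CpG islands, are mostly kept free of methylation. Dense CpG that is methylated is known from coding exons, from imprinted regions that are methylated on 1 parental copy, and from transposable elements, where methylation silences the copies. In MeDIP-seq an antibody against methylated cytosine pulls down DNA fragments, and the sequenced tags accumulate over methylated CpG. The number of tags therefore follows both the methylation and the number of CpG sites, and DNA without a peak cannot be in this set. Peaks were called without a control library, so a peak alone does not show that a region is methylated.

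To show what such DNA looks like, the 120 bp window with the most CpG sites is printed for 8 single-copy regions described later, leaving out any window over an untranslated region. The sequence is the reference plus strand of GRCm38, 5′ to 3′, and capitals mark CG. The Grb10 window lies in an intron, and the other windows lie in coding sequence.
Grb10, chr11:12026377-12026496: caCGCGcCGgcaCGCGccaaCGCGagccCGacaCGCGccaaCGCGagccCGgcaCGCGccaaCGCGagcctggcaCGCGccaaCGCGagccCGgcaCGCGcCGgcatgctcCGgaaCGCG
B3gnt3, chr8:71692825-71692944: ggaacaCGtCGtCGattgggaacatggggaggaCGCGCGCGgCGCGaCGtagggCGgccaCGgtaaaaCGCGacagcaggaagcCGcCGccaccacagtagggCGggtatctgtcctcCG
Lingo3, chr10:80834719-80834838: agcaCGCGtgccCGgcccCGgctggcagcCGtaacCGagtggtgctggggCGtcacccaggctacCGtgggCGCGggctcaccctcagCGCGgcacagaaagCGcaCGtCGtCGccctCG
Neurl1b, chr17:26431818-26431937: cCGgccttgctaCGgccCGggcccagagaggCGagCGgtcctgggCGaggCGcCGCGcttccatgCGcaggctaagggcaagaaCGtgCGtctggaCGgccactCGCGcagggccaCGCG
Zfp629, chr7:127611008-127611127: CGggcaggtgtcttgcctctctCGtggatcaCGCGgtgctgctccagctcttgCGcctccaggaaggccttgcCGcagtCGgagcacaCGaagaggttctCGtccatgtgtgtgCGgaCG
Zfp647, chr15:76911312-76911431: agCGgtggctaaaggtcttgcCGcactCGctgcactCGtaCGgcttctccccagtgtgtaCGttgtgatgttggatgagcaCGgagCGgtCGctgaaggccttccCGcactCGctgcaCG
Spen, chr4:141478810-141478929: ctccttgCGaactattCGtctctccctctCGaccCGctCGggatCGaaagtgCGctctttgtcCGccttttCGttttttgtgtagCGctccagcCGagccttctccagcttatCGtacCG
Cdh24, chr14:54632312-54632431: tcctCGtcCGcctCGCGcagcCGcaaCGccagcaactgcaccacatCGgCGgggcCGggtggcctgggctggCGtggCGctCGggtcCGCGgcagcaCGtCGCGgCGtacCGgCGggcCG
The Grb10 window held 28 CpG sites in a short unit that recurs along the window, and the Cdh24 window held 21. The windows of the zinc finger genes Zfp629 and Zfp647 held 11 and 12.

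The 1113 regions were of 2 kinds, which were told apart by cutting each region into words of 50 bases and counting how often each word occurs in the genome. In 291 regions at least 90% of the words occurred once, and these are called single-copy. In 753 regions fewer than 50% of the words occurred once, and these are called multi-copy. Their words had a median of 955 occurrences. The other 69 regions lay in between. Among all 180857 regions, 73.6% had 90% to 100% of words that occur once, against 26.1% of the CpG-dense regions.

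**Figure D1:**
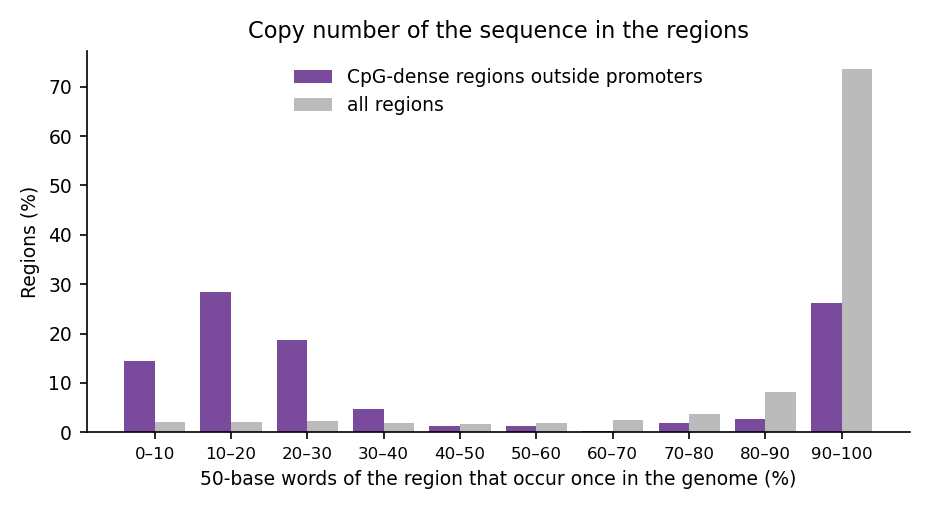
Share of regions (%) against the share of a region's 50-base words that occur once in the genome (%), for the 1113 CpG-dense regions outside promoters (purple) and all 180857 regions (grey). The CpG-dense regions form 2 groups, with 28.4% of them at 10% to 20% and 26.1% at 90% to 100%, while 73.6% of all regions sit at the right end.

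The 2 kinds lay in different places. Of the single-copy regions, 235 (80.8%) overlapped an exon of a protein-coding gene and 223 (76.6%) a coding exon, and a median of 7.6% of their bases was masked as repeat in the reference. Of the multi-copy regions, 8 (1.06%) overlapped an exon of such a gene, 197 (26.2%) lay in introns only and 548 (72.8%) lay outside protein-coding genes, 299 of them over 100 kb away. A median of 90.9% of their bases was masked. Over all regions 20.8% overlapped a protein-coding exon. The reference marks repeats without naming their families, so the elements are not named here.

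The median region was 1606 bp wide with 73 CpG sites, a GC content of 57.5% and 4.46 CpG sites per 100 bp, against 1.58 over all regions. A GC content above 50% together with an observed to expected CpG ratio above 0.6, the usual base criteria of a CpG island, held for 203 of the regions (18.2%), for 92 of the 291 single-copy regions (31.6%) and for 0.163% of all regions. The rule looked at 1 start per gene. Another annotated transcript of a protein-coding gene started at 94 of the regions, 85 of them single-copy, and 37 regions lay at the start of a long noncoding RNA gene. Chromosome 7 held the most regions for its length, 102 or 7.01 per 10 Mb, and chromosome 13 the fewest, 36 or 2.99 per 10 Mb.

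The regions nearest to the threshold on either side were mostly multi-copy. Just inside it lay regions at Prrt1, Nell1 and Cadm4 with 4 CpG sites per 100 bp after rounding, and the first outside was a repeat 15012 bp from Zfp141 with 3.999. At Prrt1 the 4 libraries held 3.32 and 3.16 CPM in WT and 3.08 and 3.94 CPM in βRapKO, and at the repeat near Zfp141 11.8 and 12.4 CPM in WT and 10.7 and 12.8 CPM in βRapKO. CPM are tags per 1000000 tags of the library that were left after removal of duplicates, and values are given in the order of replicates 1 and 2.

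The libraries had between 25585533 and 31330751 tags after removal of duplicates. The CpG-dense regions took 0.419% and 0.523% of these tags in the WT libraries and 0.351% and 0.431% in those of βRapKO. Replicates differed by more than counting noise, with a chi-square of 2.32 per CpG-dense region for the WT pair and of 2.33 for the βRapKO pair. Replicate 2 stood above replicate 1 in both genotypes at these regions, by a median of 0.18 on the log2 scale in WT and 0.21 in βRapKO, where over all regions the difference was −0.02 and 0.07. Peaks were called at 724 and 1049 of the 1113 regions in the WT libraries and at 689 and 845 in those of βRapKO. The fragment length that the peak caller estimated was 275 and 238 bp in WT and 269 and 283 bp in βRapKO. The part of these library differences in the comparisons of genotypes was not tested.

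The tag density of a region, in tags per kb of peak per 1000000 tags, was higher at higher CpG density only up to a point. In single-copy regions outside promoters with 1 to 2 CpG sites per 100 bp the median density was 1.89 and 1.98 in WT and 1.72 and 1.73 in βRapKO. With 4 to 5 CpG sites it was 2.83 and 2.98 in WT and 2.30 and 2.49 in βRapKO. With 5 or more it was 2.55 and 2.79 in WT and 2.15 and 2.30 in βRapKO, a little lower in every library. In multi-copy regions the density peaked at 3 to 4 CpG sites, with 3.92 and 4.09 in WT and 3.5 and 3.52 in βRapKO, and was 2.22 and 2.79 in WT and 2.0 and 2.39 in βRapKO at 4 to 5 sites. Each of these medians is over regions that had a peak in every library.

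**Figure D2:**
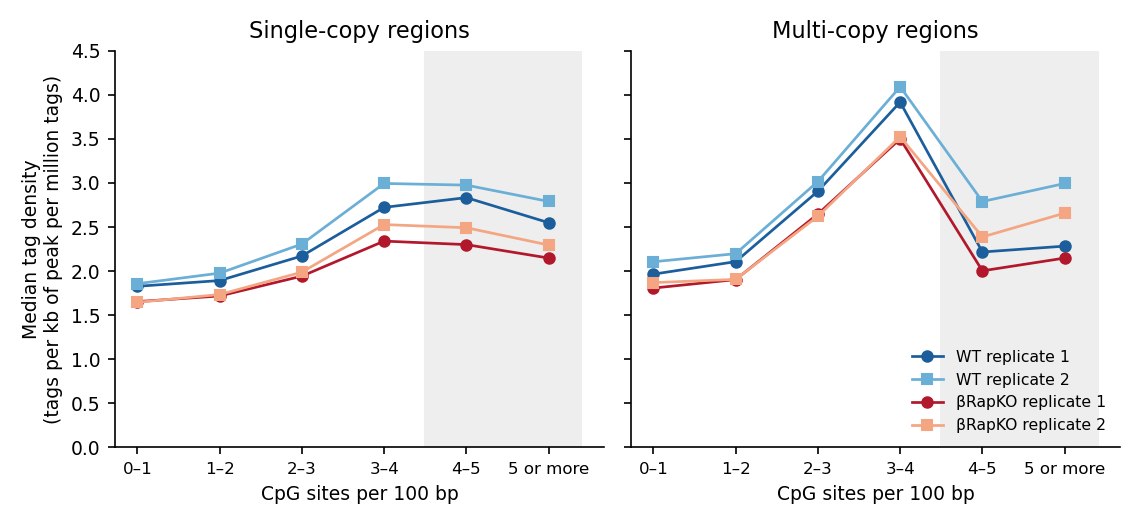
Median tag density (tags per kb of peak per 1000000 tags) against CpG sites per 100 bp for regions outside promoters with a peak in all 4 libraries, single-copy on the left and multi-copy on the right, with 1 line per library and the CpG-dense range shaded. In single-copy regions both βRapKO libraries lie below both WT libraries in all bands, and in multi-copy regions of 4 to 5 CpG sites βRapKO replicate 2 (2.39) lies above WT replicate 1 (2.22).

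Of the 1113 regions, 575 (51.7%) had a peak in all 4 libraries, and only these have a tag count for each of them. The share over all regions was 40.1%. Among single-copy regions it was 175 of 291 and among multi-copy regions 366 of 753. A filter of this kind keeps regions with many tags, and the regions that did not pass are described by the libraries in which they were called.

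The question of the comparison between genotypes was whether dense methylated CpG loses or gains tags when beta cells lack Raptor. In the median of the 575 regions βRapKO was lower, with a log2 fold-change of −0.19 against −0.06 over all 72519 regions tested, and 483 of the 575 regions (84.0%) were below 0, where 60.7% of all regions were below and 39.3% above. No region passed an FDR of 0.05 with a fold-change above 1.5, in either direction, in edgeR's quasi-likelihood test (0% of all regions in both directions), and the smallest adjusted p of a CpG-dense region was 0.463. At an unadjusted p under 0.05 the test found 94 regions lower (16.3%) and 2 higher (0.348%), where 3.93% and 1.9% of all regions were lower and higher. A difference in mean CPM of more than 1.5-fold was found at 12 regions lower and 1 higher (1.8% and 1.3% of all regions), so that the lower values were mostly small. Both βRapKO libraries lay below both WT libraries at 244 regions (42.4%, against 25.3% of all regions) and above both at 13 (2.26%, against 11.7%). Per kb of peak the same held at 283 regions (49.2%, against 41% of all regions) and at 8 (1.39%, against 4.59%).

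These counts depended on the tool, the scaling and the libraries. DESeq2 gave 1 region lower and 1 higher at an unadjusted p under 0.05. With the tags in peaks as library size, 8 were lower and 5 higher and the median log2 fold-change was −0.03, where all regions stood at 0.11. Without WT replicate 2, 24 regions were lower and 8 higher at an unadjusted p under 0.05 and the median log2 fold-change was −0.09 (−0.07 over all regions). Without βRapKO replicate 1, 26 were lower and 4 higher, with a median of −0.09 (−0.03 over all regions). Per kb of peak 147 regions were lower, with a median of −0.22, but all regions were lower as well, with a median of −0.17. Without βRapKO replicate 2 the median was −0.31 (−0.10 over all regions). The 12 regions past 1.5-fold lower became 79 without βRapKO replicate 2, 36 without WT replicate 1, 9 without WT replicate 2 and 3 without βRapKO replicate 1.

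The single-copy regions had a median below 0 in βRapKO under each scaling, tool and removal of a library that was run. Their median log2 fold-change was −0.29 over 175 regions, of which 157 (89.7%) were below 0, and the 149 of them over a coding exon had a median of −0.30, with 142 (95.3%) below 0. The median over these 149 regions was 5.20 and 5.81 CPM in WT and 3.97 and 4.56 CPM in βRapKO, with each βRapKO library below each WT library. The test gave 37 of the 149 regions lower (24.8%) and 0 higher at an unadjusted p under 0.05. Of all regions 3.93% were lower and 1.9% higher at that p. None of the 149 regions passed the FDR. Leaving out 1 library at a time gave medians from −0.42 (without βRapKO replicate 2) to −0.16 (without βRapKO replicate 1), and lowered the 37 regions to 8 without WT replicate 2 and to 13 without βRapKO replicate 1. With the tags in peaks as library size the median was −0.14, where all regions stood at 0.11, and 6 regions were lower, while DESeq2 gave 1.

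The 26 single-copy regions without a coding exon that could be tested had a median log2 fold-change of −0.11, with 15 below 0. Single-copy regions over a coding exon with fewer CpG sites were less low. Their median was −0.20 over 645 regions with 3 to 4 CpG sites per 100 bp and −0.10 over 13182 regions with fewer than 3. Leaving out the regions at which another transcript starts left 120 single-copy regions with a median of −0.26. The difference between these groups has no test of its own, since regions are not replicates.

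In single-copy regions the median log2 fold-change was lower in each denser band, a description over regions that share the libraries. The median was −0.04, −0.05, −0.10 and −0.18 in the bands up to 1, 2, 3 and 4 CpG sites per 100 bp, and −0.25 and −0.32 in the bands of 4 to 5 and of 5 or more. In multi-copy regions it ran from 0.05 to −0.16 at 4 to 5 sites and was −0.13 at 5 or more. Over all regions the median peak was 1195 and 1111 bp wide in WT and 1222 and 1280 bp in βRapKO, and tags per kb of peak gave a smaller step, from −0.15 in the lowest to −0.33 in the highest band of single-copy regions.

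**Figure D3:**
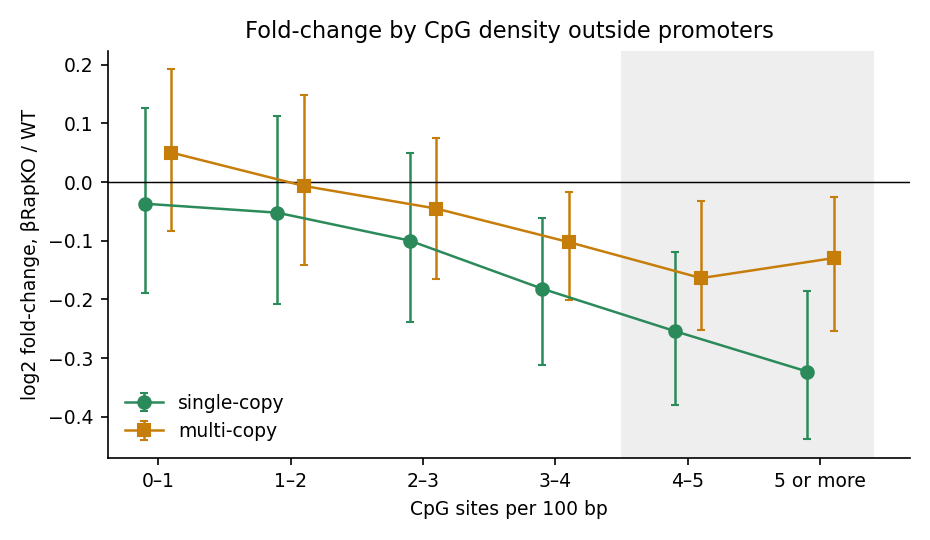
Median log2 fold-change of βRapKO over WT against CpG sites per 100 bp for regions outside promoters, single-copy (green circles) and multi-copy (orange squares), with bars from the 25% to the 75% quantile over regions and the CpG-dense range shaded. The single-copy median goes from −0.04 in the lowest band to −0.32 in the highest, and the quartiles of neighbouring bands overlap.

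The multi-copy regions were closer to all regions than the single-copy regions were. Their median log2 fold-change was −0.16 over 366 regions, 300 of them below 0, and the median tags were 3.6 and 4.6 CPM in WT and 3.39 and 4.25 CPM in βRapKO. Replicate 2 stood 0.24 above replicate 1 in WT and 0.23 in βRapKO in the median of log2 CPM. βRapKO replicate 2 stood 0.13 above WT replicate 1, and βRapKO replicate 1 stood 0.38 below WT replicate 2. Between libraries of the same number βRapKO stood 0.16 lower in both cases. Without WT replicate 2 the median fold-change was −0.01 and without βRapKO replicate 1 it was −0.02, against −0.27 without WT replicate 1 and −0.29 without βRapKO replicate 2. With the tags in peaks as library size it was 0.0067, where all regions stood at 0.11. Tags from many genomic copies were placed on 1 of them by the aligner, so a multi-copy region does not stand for its own locus.

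**Figure D4:**
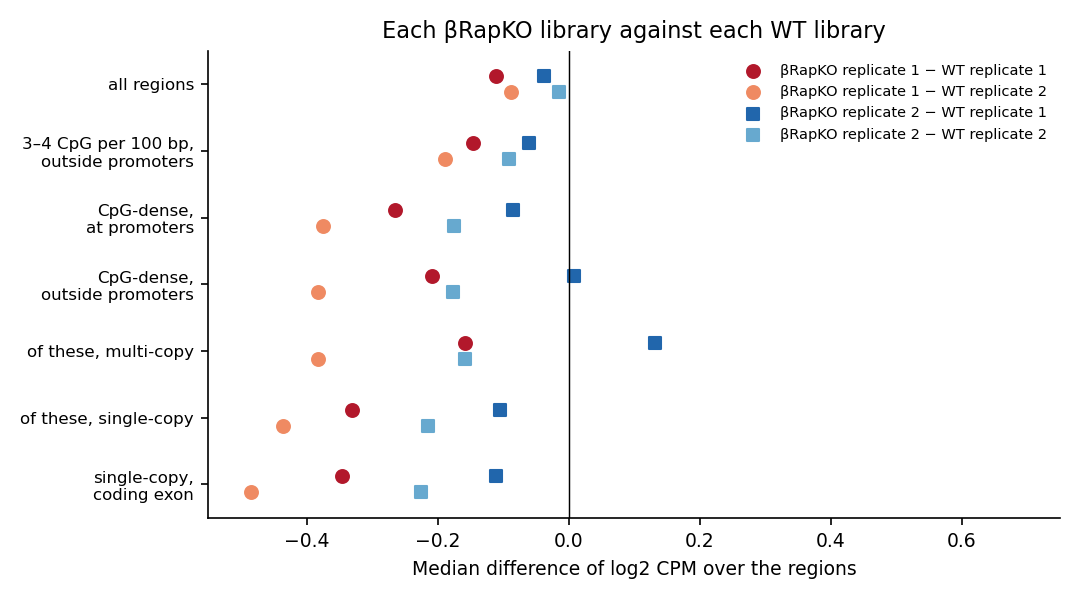
Median difference of log2 CPM over regions with a peak in all 4 libraries, for each βRapKO library against each WT library (colour and shape), by group of regions. In the single-copy regions over a coding exon the 4 differences are −0.48, −0.35, −0.23 and −0.11, while in the multi-copy regions they run from −0.38 to 0.13.

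The highest tag density of all was over ribosomal DNA at chr17:39842489-39849327, where the annotation has the rRNA gene CT010467.1 and the noncoding RNAs Gm26917, Gm42418 and AY036118. The genome carries many tandem copies of the ribosomal genes, and their tags gather on the few copies in the assembly. The region held 603 CpG sites, 8.82 per 100 bp, with 255.5 and 251.4 CPM in WT and 231.8 and 241.8 CPM in βRapKO. Its fold enrichment over the local background was 2.92 and 2.68 in WT and 2.69 and 2.79 in βRapKO. The medians of the CpG-dense regions were 7.04 and 7.67 in WT and 6.21 and 7.02 in βRapKO. βRapKO lay below WT without overlap, by a log2 fold-change of −0.10 ± 0.05 (SE, edgeR adjusted p = 0.861). The sign turned with the tags in peaks as library size, to 0.06, below the 0.11 of all regions.

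The next densities were much lower, with means over the libraries of 8.53 at Bptf, 8.37 at Zc3h7a, 7.11 at Jph1 and 7.04 at Gm29776, against 36.9 at the ribosomal DNA. A region in intron 25 of Bptf, a subunit of the NURF chromatin remodeller, at chr11:107047957-107051898, had 33.5 and 33.7 CPM in WT and 31.9 and 29.2 CPM in βRapKO. It was multi-copy, with 37.2% of its words occurring once. A region in intron 19 of Zc3h7a, at chr16:11143277-11144944, had 13.3 and 14.2 CPM in WT and 12.97 and 13.2 CPM in βRapKO, a log2 fold-change of −0.07 ± 0.10 (SE). Of its words 69.7% occurred once. Both regions turned above 0 with the tags in peaks as library size, to 0.03 and 0.09, below the 0.11 of all regions. In exon 2 of Jph1, which encodes junctophilin 1, a protein that ties the endoplasmic reticulum to the plasma membrane, the region at chr1:17091178-17092216 had 6.84 and 8.27 CPM in WT and 5.92 and 6.99 CPM in βRapKO, and the genotypes overlapped. The last of the 5 densest regions, exon 14 of Gm29776 at chr14:54690800-54692995, had 15.01 and 17.6 CPM in WT and 11.1 and 12.3 CPM in βRapKO, with a log2 fold-change of −0.48 ± 0.12 (SE) and an adjusted p of 0.596 from edgeR's test. Its words occurred a median of 4 times in the genome.

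Among the regions with a peak in each of the 4 libraries, those with the most CpG sites per 100 bp after ribosomal DNA were 4 single-copy regions. Other regions that were denser than these 4, with up to 11.0 sites per 100 bp, lacked a peak in at least 1 library. Exon 2 of Ajm1, a component of apical junctions, held 7.74 sites per 100 bp at chr2:25576427-25579564 and had 4.92 and 6.83 CPM in WT and 4.04 and 5.96 CPM in βRapKO. Exon 3 of Chst13, a chondroitin sulfotransferase, held 7.70 at chr6:90308679-90309937, with 2.27 and 2.74 CPM in WT and 1.71 and 2.78 CPM in βRapKO. At both the genotypes overlapped, with replicate 2 higher in each genotype. A region of 185 CpG sites at chr8:122335347-122337776 lies over the coding part of exon 10 of Zfpm1, a cofactor of GATA factors, and in intron 1 of the overlapping gene Gm20388. It had 5.28 and 6.03 CPM in WT and 1.92 and 4.73 CPM in βRapKO, with a log2 fold-change of −0.77 ± 0.35 (SE) and an adjusted p of 0.861 from edgeR's test. The log2 fold-change was −0.26 without βRapKO replicate 1, −1.56 without βRapKO replicate 2 and −0.29 per kb of peak.

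The 3 smallest p values belonged to B3gnt3, Lingo3 and Npas3, all lower in βRapKO without passing the FDR. At exons 2 to 3 of B3gnt3, an enzyme that extends O-linked glycans, chr8:71692034-71694428 had 8.75 CPM in both WT libraries and 5.92 and 5.86 CPM in βRapKO, a log2 fold-change of −0.57 ± 0.12 (SE, edgeR adjusted p = 0.463). The gap between the genotypes was larger than the spread of the replicates here, which a choice by the smallest p favours. Exon 2 of Lingo3, a transmembrane protein with leucine-rich repeats, had 7.74 and 8.94 CPM in WT and 5.37 and 5.72 CPM in βRapKO at chr10:80832174-80836395 (log2 fold-change −0.59, edgeR adjusted p = 0.550), and per kb of peak the log2 fold-change was −0.30. Intron 4 of Npas3, a transcription factor of the nervous system, had 9.30 and 9.29 CPM in WT and 6.13 and 6.79 CPM in βRapKO at chr12:53706874-53708173 (log2 fold-change −0.53, edgeR adjusted p = 0.550). Of the words of this region 61.5% occurred once, so it was not single-copy.

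Among the regions whose genotypes did not overlap, the 3 with the largest differences in each direction were of different kinds. Lower in βRapKO were Neurl1b and Grb10, both single-copy, and a repeat at chr1:75713208-75715809, 151036 bp from Slc4a3. Exon 2 of Neurl1b, a ubiquitin ligase of Notch signalling, had 4.30 and 4.56 CPM in WT and 2.16 and 2.98 CPM in βRapKO at chr17:26431369-26432902 (log2 fold-change −0.79 ± 0.20 (SE), edgeR adjusted p = 0.617). The repeat had 3.01 and 4.12 CPM in WT and 1.095 and 2.84 CPM in βRapKO, and its log2 fold-change was −0.86, but −0.14 per kb of peak. The 3 higher regions were multi-copy. In intron 2 of Fam19a1, which encodes a secreted protein, chr6:96595181-96597244 had 1.76 and 1.92 CPM in WT and 2.50 and 3.74 CPM in βRapKO (log2 fold-change 0.76, edgeR adjusted p = 0.825). Another repeat, 381400 bp from Ripk2, had 1.37 and 1.02 CPM in WT and 1.81 and 1.61 CPM in βRapKO. In intron 1 of Cmss1 the region had 1.84 and 3.26 CPM in WT and 3.56 and 3.496 CPM in βRapKO, and per kb of peak the log2 fold-change was −0.003. The density of the Fam19a1 region differed less than its tags, with 1.39 and 1.52 tags per kb per 1000000 in WT and 1.56 and 1.81 in βRapKO.

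**Figure D5:**
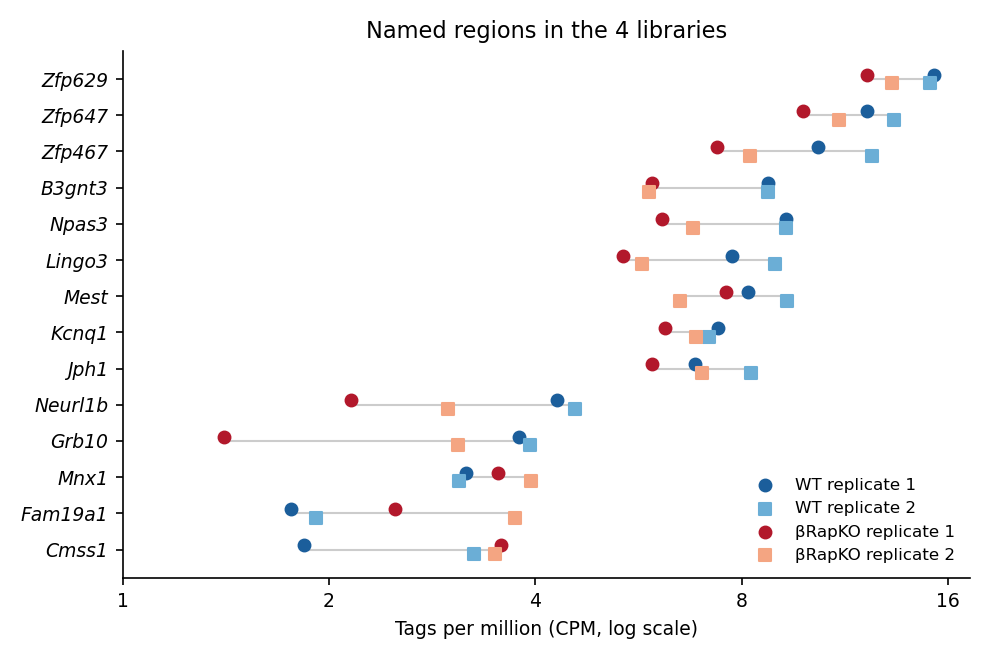
CPM (log scale) in the 4 libraries for 14 named regions, with WT in blue, βRapKO in red, replicate 1 as circles, replicate 2 as squares and a grey line over the range. Both βRapKO libraries lie left of both WT libraries at Zfp629, Zfp647, Zfp467, B3gnt3, Npas3, Lingo3, Mest, Kcnq1, Neurl1b and Grb10, and right of both at Mnx1, Fam19a1 and Cmss1, while the genotypes overlap at Jph1.

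Imprinted genes are expressed from 1 parental copy, under control regions that are methylated on 1 copy from the germline on. The methylated copy can be the silent one, or the expressed one where methylation silences an antisense RNA. Of 55 annotated genes of an imprinted list, 14 had a CpG-dense region in the gene or up to 2 kb upstream, 12 regions in all and all single-copy. Of the 8 with a peak in all libraries, 7 were below 0, with a median log2 fold-change of −0.23, and 1 was lower at an unadjusted p under 0.05, Grb10. Of all regions 60.7% were below 0 and 3.93% lower at that p, and of the CpG-dense regions 84.0% were below 0, close to the imprinted ones. Grb10 is an adaptor that binds the insulin and IGF1 receptors. Its region at chr11:12024968-12027155, in intron 1 with 7.495 CpG sites per 100 bp, had 3.79 and 3.93 CPM in WT and 1.403 and 3.08 CPM in βRapKO, a log2 fold-change of −0.78 ± 0.32 (SE, edgeR adjusted p = 0.855). The low value was that of βRapKO replicate 1, and per kb of peak the log2 fold-change was −0.33.

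The log2 fold-changes were smaller at Impact (−0.43), Mest (−0.31) and Kcnq1. Exon 1 of Mest, at chr6:30735110-30739197, had 8.17 and 9.32 CPM in WT and 7.597 and 6.51 CPM in βRapKO. The region in intron 11 of Kcnq1 from which the noncoding RNA Kcnq1ot1 is transcribed, chr7:143294586-143297138, had 7.39 and 7.18 CPM in WT and 6.19 and 6.86 CPM in βRapKO (log2 fold-change −0.16 ± 0.13 (SE), edgeR adjusted p = 0.888). At Gnas, which encodes the stimulatory G protein alpha subunit, and its antisense RNA Nespas, a region of 7307 bp at chr2:174294186-174301492 had no peak in WT replicate 1. It held 11.1 CPM in WT replicate 2 and 8.62 and 17.5 CPM in βRapKO.

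Imprinted control regions are known to carry the hexamer TGCCGC, which ZFP57 binds when it is methylated, with TRIM28 as its partner. The hexamer was counted on both strands in the central 1000 bp of every region of at least that width. All 9 imprinted regions of that width held it, with a mean of 3.22 per window, against 109 of 232 single-copy CpG-dense regions (47.0%, mean 0.823), 67 of 683 multi-copy ones (9.81%) and 16.9% of all regions. Of the 22 CpG-dense regions with 3 or more copies in the window, 5 were imprinted. The imprinted regions are part of the single-copy group, and a match of letters does not show binding. Windows of 120 bp with 2 to 3 copies are printed for 3 of these regions, on the plus strand of GRCm38 from 5′ to 3′, with the hexamer or its reverse complement in capitals. They were searched for in the whole region, so their copies need not lie in the central 1000 bp, and those of Gnas do not.
Mest, chr6:30737600-30737719: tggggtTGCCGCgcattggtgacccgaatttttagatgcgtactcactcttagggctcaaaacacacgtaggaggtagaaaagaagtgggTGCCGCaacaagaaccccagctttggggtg
Kcnq1, chr7:143295648-143295767: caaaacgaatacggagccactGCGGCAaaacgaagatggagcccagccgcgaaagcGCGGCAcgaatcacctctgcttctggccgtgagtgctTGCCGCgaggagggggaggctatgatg
Gnas, chr2:174295856-174295975: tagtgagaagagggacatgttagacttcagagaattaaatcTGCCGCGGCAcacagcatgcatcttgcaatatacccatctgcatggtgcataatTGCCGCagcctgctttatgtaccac
In the Gnas window the forward and the reverse hexamer overlap by 2 bases.

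Zinc finger genes were the longest list. Of 404 genes with a zinc finger symbol, 20 had a CpG-dense region, 21 regions in all and 17 of them single-copy. All 15 regions that could be tested were below 0, with a median log2 fold-change of −0.31, and 7 were lower at an unadjusted p under 0.05, where 60.7% of all regions were below 0 and 3.93% lower at that p. The median is near the −0.30 of all single-copy CpG-dense regions over a coding exon, of which 95.3% were below 0. None passed the FDR. Genes of this family encode DNA-binding factors, many of them repressors that act through TRIM28. Exon 5 of Zfp467 had 10.4 and 12.4 CPM in WT and 7.36 and 8.23 CPM in βRapKO at chr6:48437231-48439705 (log2 fold-change −0.55 ± 0.14 (SE), edgeR adjusted p = 0.585).

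Zfp629 had the most tags of the zinc finger genes, 15.3 and 15.1 CPM in WT and 12.2 and 13.3 CPM in βRapKO over exons 2 to 3 at chr7:127610339-127612807. Zfp647 had 12.2 and 13.3 CPM in WT and 9.82 and 11.1 CPM in βRapKO over exon 4 at chr15:76910669-76912846. Both had an unadjusted p under 0.05 and adjusted p values of 0.855 in edgeR's test, with log2 fold-changes of −0.25 and −0.29. At Zfp777 and Zfp579 the log2 fold-changes were −0.17 and −0.39, and the βRapKO libraries overlapped the WT libraries at Zfp777 (8.91 and 10.1 CPM in WT, 7.80 and 9.12 CPM in βRapKO).

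Transcription factors of islets and of development had few such regions. Of 31 annotated islet factors 1 had a region, Mnx1, a homeobox factor that beta cells need to form. It had 3.17 and 3.10 CPM in WT and 3.52 and 3.94 CPM in βRapKO over exons 2 to 3 at chr5:29473302-29475207, and so was one of the few regions where both βRapKO libraries were above both WT libraries (log2 fold-change 0.25 ± 0.17 (SE), edgeR adjusted p = 0.867). Of 168 developmental factors 6 had a region, 8 regions in all, and the 6 that could be tested were below 0 with a median of −0.24. A region of Foxo6 was lower at an unadjusted p under 0.05, by a log2 fold-change of −0.61, and the Foxo6 region with the most tags had −0.36. Of all regions 60.7% were below 0 and 3.93% lower at that p, and of the CpG-dense regions 84.0% and 16.3%. With the tags in peaks as library size the sign turned at Foxo3 and Sox6. Exon 3 of Foxo3, a forkhead factor held in check by insulin signalling, had 6.64 and 8.84 CPM in WT and 6.54 and 7.47 CPM in βRapKO, and the genotypes overlapped. Exon 1 of Foxc1, beyond its coding part, had 4.85 and 5.84 CPM in WT and 3.83 and 4.73 CPM in βRapKO, without overlap.

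Ion channel genes went both ways, as all regions did. Of 131 genes 10 had a region, and of the 7 that could be tested 4 were below and 3 above 0, with 0 at an unadjusted p under 0.05 in edgeR's test. Of all regions 60.7% were below and 39.3% above 0, and 3.93% were lower and 1.9% higher at that p. Of the CpG-dense regions 84.0% were below 0. The regions at Kcnab1 and Kcnq3, both above 0, were multi-copy. Exon 19 of the calcium channel gene Cacna1b had 2.46 and 2.68 CPM in WT and 2.53 and 2.81 CPM in βRapKO, and exon 1 of the potassium channel gene Kcnc1 had 3.17 and 3.06 CPM in WT and 1.95 and 2.64 CPM in βRapKO. Genotypes overlapped at Cacna1b, and did not at Kcnc1 (log2 fold-change −0.44 ± 0.21 (SE), edgeR adjusted p = 0.861).

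Clustered protocadherin genes, cell adhesion genes whose first exons are chosen in single neurons with the help of promoter methylation, shared 12 regions among 32 of 56 genes. All 10 that could be tested were below 0, with a median log2 fold-change of −0.22, and 2 were lower at an unadjusted p under 0.05. The shares were 60.7% and 3.93% over all regions, and 84.0% and 16.3% over the CpG-dense regions. The exons are near copies of each other, and only 3 of the 12 regions were single-copy, so the values of single genes are uncertain. Of 21 genes of DNA methylation and its readers 1 had a region, Trim28. The region lies over exons 2 to 3 of Zbtb45 at chr7:13005399-13008531. It overlaps the annotated Trim28 gene before exon 1 of the transcript with the longest coding sequence. It had 8.56 and 7.25 CPM in WT and 5.85 and 6.51 CPM in βRapKO (log2 fold-change −0.35 ± 0.15 (SE), edgeR adjusted p = 0.855). No CpG-dense region outside promoters lay at any of 38 annotated genes that are disallowed in beta cells, or at any of 36 genes of mTORC1.

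Whether a peak was called at all gave a different order. A peak in both WT libraries and in no βRapKO library was found at 36 of the 1113 regions (3.23%, against 4.19% of all regions), 21 of them single-copy. The reverse was found at 3 regions (0.270%, against 1.59% of all regions), all multi-copy. Peaks in both replicates 2 and in neither replicate 1 were found at 101 regions (9.07%, against 4.18% of all regions), 92 of them multi-copy, and no region had peaks in both replicates 1 only (1.63% of all regions). A missing peak says that the caller did not find enrichment over the surrounding DNA, and does not say that tags were absent.

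The WT-only region with the most tags lay in exon 12 of Spen, a corepressor with RNA-binding domains, at chr4:141473945-141479839. It had 27.4 and 27.5 CPM in the WT libraries, with fold enrichments over the local background of 3.52 and 5.09. Exons 10 to 12 of Cdh24, a cadherin, had 4.92 and 4.85 CPM in WT at chr14:54631661-54633543, and a region at Il4i1 and Tbc1d17 had 3.13 and 5.52 CPM. The 3 regions found only in βRapKO were weaker, with 1.403 and 3.19 CPM at chr13:33372955-33374947, 1.61 and 1.99 CPM at chr4:122712136-122713746 and 1.85 and 1.13 CPM in intron 8 of the glutamate transporter gene Slc1a6.

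Of the 119 CpG-dense regions at promoters 63 could be tested, and 57 of these were below 0 (90.5%, against 60.7% of all regions). Their median log2 fold-change of −0.19 equalled that outside promoters after rounding, and 9 were lower and 0 higher at an unadjusted p under 0.05, with 0 past the FDR in edgeR's test. Regions with 3 to 4 CpG sites per 100 bp outside promoters had a median of −0.12 over 3396 regions, with 252 lower (7.42%) and 18 higher (0.530%). At that p 3.93% of all regions were lower and 1.9% higher.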

How the data were processed

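Methylated DNA of islets was measured by MeDIP-seq in 2 WT and 2 βRapKO libraries, grouped as the labels name genotype and replicate. The authors aligned reads to mm10 with Bowtie2 version 2.2.5 and called peaks in each library without a control library (MACS, version 1.4.2 per the file headers and 0.14.2 in the submitters' processing notes, p cutoff 1e-05, 1 tag kept per position). They deposited for each peak a raw tag count, a score (the negative log10 of the p-value times 10), and a fold enrichment, the ratio over the local background. Tags outside peaks were not used here.

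Overlapping peaks were merged across libraries, tags of a library's peaks in a region were summed, and CpG sites were counted in the GRCm38 reference with genes from GENCODE M21. Words of 50 bases were taken every 50 bases and looked up on the whole assembly. Where every library had a peak, βRapKO was compared with WT by the quasi-likelihood test of edgeR (version 4.0.16 in R 4.3.3), with the tags after removal of duplicates as library size, no further scaling and Benjamini-Hochberg adjustment over the 72519 such regions of chromosomes 1 to 19. The SE of a log2 fold-change was derived from the test, as its absolute value over the square root of the F statistic. The test was checked on simulated data. Counts per list, medians and call patterns are descriptions without a test. With 2 libraries against 2, an exact permutation test cannot go below p = 0.333 and none was run. The depth, 25585533 to 31330751 tags per library, leaves few tags in a region of 1 CPM, where counting noise is largest.

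Regions named were, among those with a peak in each library, the 5 with the highest tag density, the 5 with the most CpG per 100 bp, the 3 with the smallest p, the 3 largest differences per direction without overlap, and besides these the 3 per genotype with the most tags among regions called in 1 genotype only, and regions of 9 gene lists. A named region of the ion channel list is not reported here. The regions, lists and tests were chosen with earlier results of these data known. The split by copy number was added after seeing the data, as were the motif count and its windows. Alternatives were other library sizes, TMM, limma 3.58.1 on log2(CPM + 0.5), DESeq2 1.42.0, tags per kb of peak, a replicate block, at least 50 tags per library, stricter peaks, another overlap, other CpG and promoter limits, X and Y, another fold and FDR, and the removal of each library. Peaks were joined in Python 3.11.15 with NumPy 2.4.6 and pandas 2.3.3.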

Additional observations from a re-analysis of the deposited data

How the results depend on the processing

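No CpG-dense region passed the FDR with a 1.5-fold difference in any setting, and the smallest adjusted p where the same regions were fitted was 0.184. The median log2 fold-change stayed below 0, at −0.03 with the tags in peaks as library size and from −0.31 to −0.09 without 1 library. The median of the multi-copy regions alone turned to 0.0067 with the tags in peaks. The counts of regions at an unadjusted p under 0.05 were 8 lower and 5 higher with the tags in peaks, 59 lower with TMM, 1 and 1 with DESeq2, 53 lower with limma, 147 and 0 per kb of peak, and 24 to 124 lower and 1 to 8 higher without 1 library. At least 50 tags per library and stricter peaks left 0 higher each. A limit of 3 or more CpG sites per 100 bp gave 5908 regions, with 346 lower and 20 higher, and 5 or more gave 233, with 21 lower and 0 higher. Past 1.5-fold, 4 were lower and 3 higher with the tags in peaks, 5 and 2 with TMM, 0 higher per kb, 0 higher with at least 50 tags, 4 and 0 with stricter peaks, 44 and 9 at 3 or more CpG sites, 5 and 0 at 5 or more, 0 and 0 past 2-fold, and 3 to 79 lower and 1 to 14 higher without 1 library. WT-only regions numbered 129 and 9 at the limits of 3 and 5 CpG sites and 48 to 205 without 1 library, and βRapKO-only regions 32 and 1, 1 with stricter peaks and 6 to 60 without 1 library, since fewer libraries then have to share the pattern. Tag density relative to other regions went from 1.12 to 1.70 at 3 or more CpG sites. The other causes were not tested.

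Of 38 named regions 26 kept their sign in every setting. With the tags in peaks, which moved the median of all regions from −0.06 to 0.11, it turned at the ribosomal DNA (0.062), Bptf (0.028), Zc3h7a (0.092), Kcnq1 (0.0029), Foxo3 (0.022), Sox6 (0.15) and Pcdha1 (0.078), with TMM at Sox6 (0.050), with DESeq2 at Sox6 (0.049), and per kb at Cmss1 (−0.0035), Kcnab1 (−0.21) and Cacna1b (−0.031). Without 1 library the log2 fold-change ran from −0.55 to 0.022 at Ajm1, −0.56 to 0.14 at Chst13, −0.34 to 0.076 at Foxo3, −0.34 to 0.26 at Sox6, −0.43 to 1.04 at Kcnab1 and −0.025 to 0.13 at Cacna1b.

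The labels give replicate numbers without saying that they pair libraries. With a replicate block 108 regions were lower and 2 higher at an unadjusted p under 0.05, the median stayed at −0.19 and no region passed the FDR. The deviations of equally numbered libraries correlated at 0.236 over the CpG-dense regions and 0.0464 over all regions.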

Other observations

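On the X chromosome, which was left out of the regions above, 129 regions were as dense in CpG and outside promoters. Peaks were called at 78 and 117 of them in the WT libraries and at 78 and 99 in the βRapKO libraries, so that each replicate 2 again held more. Of the 59 with a peak in every library 50 had a log2 fold-change below 0, with a median of −0.11. The Y chromosome had 9 such regions, all called in every library, with 8 below 0 and a median of −0.14. Among the tested regions of the other chromosomes, 84.0% of the CpG-dense ones outside promoters and 60.7% of all were below 0. Their medians were −0.19 and −0.06. The counts below 0 on X and Y were close to the share of the CpG-dense regions elsewhere, while the X and Y medians lay between these medians. A median of 89.5% of the bases was masked as repeat on X.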
